A study of Mus musculus with 9 samples.

Results

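The genes described here encode 10 proteins that build the mitotic spindle or carry out cytokinesis, 6 of the spindle (Aspm, Hmmr, Tpx2, Nusap1, Ckap2 and Tacc3) and 4 of the cleavage machinery (Prc1, Anln, Racgap1 and Ect2). They were chosen by name, with earlier results of these data known. All probe sets annotated with 1 gene whose symbol is on that list were taken. That gave 28 of the 34945 such probe sets on the array and 10 of the 18193 genes these represent. RNA came from invariant natural killer T (iNKT) cells, T cells with a nearly fixed receptor for lipids on CD1d, which were sorted from thymi of sex- and age-matched mice 8 to 12 weeks old. There were 4 arrays of Utx knockout cells (KO1 to KO4) and 5 of Utx wildtype cells (WT1 to WT5), labelled as biological replicates. Utx is the histone demethylase that the X-linked gene Kdm6a encodes, and it acts on methylated lysine 27 of histone H3. The labels give no further allele or treatment for either group, and the sources used here name neither the allele deleted, nor the cells in which it was deleted, nor the gate of the sort. The titles name 3 batches. Batch 1 holds KO1 and WT1, batch 2 holds KO2, KO3, KO4 and WT2, and batch 3 holds WT3, WT4 and WT5.

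In dividing cells the spindle is assembled from microtubules that are nucleated at poles and around chromosomes, bundled by crosslinking proteins and focused at the poles. In anaphase the antiparallel bundles of the central spindle and the centralspindlin complex direct RhoA activation at the cell equator, where a contractile ring with anillin at its core cuts the cell in 2. Transcripts of these proteins are made mainly in G2 and M phase. In the thymus, iNKT cells divide strongly at early stages after selection, and mature NKT1 cells divide little. On bulk arrays, more cells of a kind and more RNA per cell cannot be told apart.

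The arrays had medians of 5.97 to 6.09 (log2, knockout and wildtype together) and interquartile ranges of 3.80 to 4.29 on knockout and 3.45 to 3.84 on wildtype arrays. Kdm6a itself did not mark the genotype. Its 4 probe sets differed by -0.46 to 0.52 (log2, knockout minus wildtype), and 0 passed limma's adjusted p of 0.05, 1 having an unadjusted p under 0.05. The sources used here do not say whether any of them lies in a deleted part, so they do not check the labels. KO1 and WT1 deviated from their group means in opposite ways (r = -0.92 across the genes tested, which are not independent replicates), against r of 0.02 to 0.15 for the other same-numbered arrays. RMA normally gives arrays near-equal interquartile ranges, and the sources used here do not say whether the values were adjusted after it. Differences, SEs and p-values below take them as deposited, and the difference of each gene is also given without the arrays of batch 1.

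The start regions of 6 of these genes hold both TTTGAA and CCAAT, letters known from G2 and M phase promoters, which is why those 6 are shown. TTTGAA is the core of the cell cycle homology region, bound by the DREAM and MuvB complexes, and CCAAT is bound by the factor NF-Y. Both were searched on both strands (as TTTGAA or TTCAAA, and as CCAAT or ATTGG, which can share 1 base at most) in windows of 250 bases before to 50 bases after each start, from RefSeq on build GRCm38.p6. Of the 10 genes, 9 had a window and 6 held both motifs, Aspm, Hmmr, Prc1, Ckap2, Racgap1 and Ect2. Anln held TTTGAA without CCAAT, Nusap1 and Tacc3 held neither, and Tpx2 has no entry in the table used. Over all 32851 promoters of the same length, 17.9% held TTTGAA, 37.4% CCAAT and 6.95% both. Among the 14725 promoters of the genes tested here, 12.6%, 37% and 4.82% did. Counted by promoter in the same way, the 9 genes had 11 windows, of which 9 held TTTGAA, 8 CCAAT and 8 both. Prc1 and Ect2 had 2 overlapping windows each, which hold the same matches, so these genes count 2 times here. The 140 bases around the start of these 6 genes run 5′ to 3′ on the gene's strand, with every match to either motif, on either strand, in capitals.
Aspm, chr1:139454658-139454797, plus strand: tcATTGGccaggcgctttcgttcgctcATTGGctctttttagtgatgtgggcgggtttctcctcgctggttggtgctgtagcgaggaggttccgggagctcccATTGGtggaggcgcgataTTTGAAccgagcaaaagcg
Hmmr, chr11:40733413-40733552, minus strand: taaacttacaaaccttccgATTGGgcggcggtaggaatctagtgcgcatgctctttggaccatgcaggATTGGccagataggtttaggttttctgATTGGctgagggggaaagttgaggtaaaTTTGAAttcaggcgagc
Racgap1, chr15:99651632-99651771, minus strand: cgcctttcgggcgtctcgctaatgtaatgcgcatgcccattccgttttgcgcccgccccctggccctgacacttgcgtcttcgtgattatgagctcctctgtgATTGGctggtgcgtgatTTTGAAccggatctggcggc
Ect2, chr3:27153830-27153969, minus strand: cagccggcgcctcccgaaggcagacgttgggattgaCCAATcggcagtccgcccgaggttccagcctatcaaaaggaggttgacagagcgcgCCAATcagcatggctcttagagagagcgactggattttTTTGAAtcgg
Prc1, chr7:80294361-80294500, plus strand: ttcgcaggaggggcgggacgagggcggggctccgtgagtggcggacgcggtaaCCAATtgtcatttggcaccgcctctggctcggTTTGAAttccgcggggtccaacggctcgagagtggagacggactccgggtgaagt
Ckap2, chr8:22185795-22185934, minus strand: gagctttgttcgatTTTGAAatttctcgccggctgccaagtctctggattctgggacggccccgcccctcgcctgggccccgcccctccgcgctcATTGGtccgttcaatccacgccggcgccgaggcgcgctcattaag
In Aspm, Hmmr and Racgap1 TTTGAA began at positions 7, 9 and 6, counted from 1 at the start, and the ATTGG nearest the start began at -12, -20 and -12, counted back from -1 at the base before it. Ect2 and Prc1 have 2 annotated starts each, and the one shown is the second listed. In Ect2 TTTGAA began at position 16 with CCAAT at -23, and in Prc1 at -30 with CCAAT at -62. Ckap2 had the opposite order, with TTTGAA at -101 and ATTGG at -20. A match of letters is not a measured binding site.

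All 10 genes were higher in Utx knockout iNKT cells, by 2.44-fold (Tacc3) to 7.59-fold (Hmmr). With batch in the model, the adjusted p from limma was under 0.05 for each. Folds and log2 differences of genes are from this fit and can differ from those between the printed means. Their wildtype side rests on WT1 and WT2, because batch 3 holds no knockout array and its wildtype arrays add only to the spread. Of the 14524 genes tested 7.88% were called higher and 11.3% in either direction, and 7 of the 10 had an adjusted p under 0.01, where 1.87% of the genes were called higher. Every knockout array read above every wildtype array for all 10 genes, which 22.2% of the genes tested also did. The median log2 difference of the 10 genes was 1.96, beside 0.11 over all genes tested. The plot of levels by array shows each gene with its arrays and batches. Levels are given for the probe set of highest mean of each gene, and adjusted p values below are limma's, over all genes tested.

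**Figure D1:**
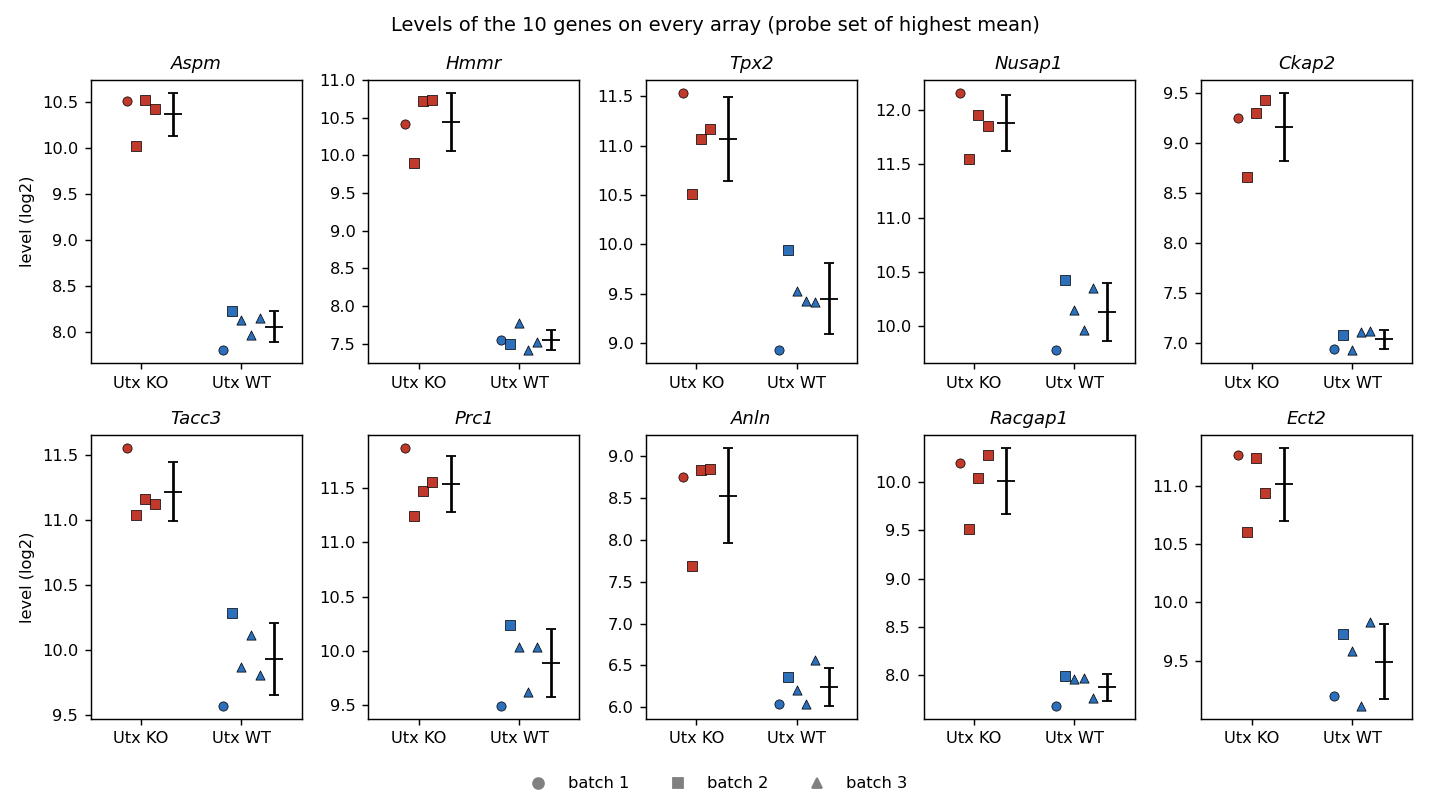
Level (log2, vertical axis, with its own range in each panel) of each of the 10 genes on the 4 Utx knockout arrays (red) and the 5 Utx wildtype arrays (blue), symbols giving the batch and bars the mean ± SD. The groups do not overlap for any gene, and KO2 is the lowest knockout array throughout.

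Hmmr, the hyaluronan-mediated motility receptor that acts inside the cell at spindle poles and microtubules, had the largest difference of the 10. It read 10.41, 9.90, 10.72 and 10.74 (log2) on knockout arrays KO1 to KO4, against 7.55, 7.49, 7.77, 7.42 and 7.52 on wildtype arrays WT1 to WT5. The lowest knockout array lay 2.13 above the highest wildtype array, the widest gap of the set. Hmmr averaged 10.44 ± 0.39 in knockout and 7.55 ± 0.13 in wildtype cells (SD, n = 4 and n = 5). In the fit with batch it rose 7.59-fold (log2 difference 2.92, SE 0.26, adjusted p = 0.0024). By size of positive difference it was number 13 of all genes tested.

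Aspm, which focuses microtubule minus ends at the spindle poles and is mutated in human primary microcephaly, rose 5.02-fold (log2 difference 2.33, SE 0.21, adjusted p = 0.0024). Its levels were 10.51, 10.02, 10.52 and 10.42 (log2) on knockout arrays KO1 to KO4, against 7.81, 8.23, 8.14, 7.98 and 8.15 on wildtype arrays WT1 to WT5. KO1, KO3 and KO4 lay close together with KO2 lower, and the groups were 1.78 apart. Its means were 10.36 ± 0.24 in knockout and 8.06 ± 0.17 in wildtype cells (SD, n = 4 and n = 5).

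Tpx2, which activates Aurora A and nucleates microtubules near chromosomes, rose 3.08-fold (log2 difference 1.62, SE 0.34, adjusted p = 0.0233), with the largest spread among wildtype arrays of the set. Its levels were 11.54, 10.51, 11.06 and 11.16 (log2) on knockout arrays KO1 to KO4, against 8.93, 9.94, 9.53, 9.43 and 9.42 on wildtype arrays WT1 to WT5. KO1 was the highest knockout and WT1 the lowest wildtype array, and the groups were separated by 0.57, the narrowest gap of the 10. The means were 11.07 ± 0.42 in knockout and 9.45 ± 0.36 in wildtype cells (SD, n = 4 and n = 5). The call ended without KO1 or WT1 (0.97, adjusted p = 0.0567 and 0.0571), as it did without KO3 (1.63, adjusted p = 0.0504). Without WT2, batch 2 holds no wildtype array, and the difference, 2.60, was that of KO1 and WT1 alone.

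Tacc3, a transforming acidic coiled-coil protein that with clathrin and the polymerase chTOG crosslinks the fibres attached to kinetochores, rose the least of the set, 2.44-fold (log2 difference 1.29, SE 0.25, adjusted p = 0.0168). It read 11.55, 11.04, 11.17 and 11.12 (log2) on knockout arrays KO1 to KO4, against 9.57, 10.29, 9.87, 10.12 and 9.81 on wildtype arrays WT1 to WT5. KO1 stood above the other knockout arrays, and WT2 and WT4 were the high wildtype arrays. Its means were 11.22 ± 0.23 in knockout and 9.93 ± 0.28 in wildtype cells (SD, n = 4 and n = 5). Without KO1 or WT1 the difference was 0.82, with the call kept. Without WT2 it was 1.98, which is the difference of KO1 and WT1 alone.

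Nusap1, a microtubule-bundling protein of spindle fibres near chromosomes, rose 3.4-fold (log2 difference 1.76, SE 0.25, adjusted p = 0.00634). Its levels were 12.16, 11.54, 11.95 and 11.85 (log2) on knockout arrays KO1 to KO4, against 9.78, 10.43, 10.15, 9.96 and 10.35 on wildtype arrays WT1 to WT5. The knockout arrays were ordered KO1, KO3, KO4 and KO2 from high to low, and WT1 was the lowest wildtype array. The means were 11.88 ± 0.26 in knockout and 10.13 ± 0.27 in wildtype cells (SD, n = 4 and n = 5). Without WT2 the difference was 2.38, that of KO1 and WT1 alone.

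Ckap2, a microtubule-stabilising protein needed for spindle formation and chromosome segregation, rose 4.44-fold (log2 difference 2.15, SE 0.23, adjusted p = 0.00297). It read 9.24, 8.65, 9.30 and 9.43 (log2) on knockout arrays KO1 to KO4, against 6.94, 7.08, 6.93, 7.11 and 7.12 on wildtype arrays WT1 to WT5. The wildtype arrays were closer together than for any other of the 10 genes, and the groups were 1.53 apart. The means were 9.16 ± 0.34 in knockout and 7.04 ± 0.09 in wildtype cells (SD, n = 4 and n = 5).

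Among the cytokinesis genes, Anln had the largest difference, 5.09-fold (log2 difference 2.35, SE 0.36, adjusted p = 0.00791). It encodes anillin, which links actin, myosin and septins in the contractile ring. Its levels were 8.75, 7.68, 8.84 and 8.85 (log2) on knockout arrays KO1 to KO4, against 6.04, 6.36, 6.21, 6.04 and 6.57 on wildtype arrays WT1 to WT5. KO2 stood well below the other knockout arrays and still 1.12 above the highest wildtype array. The means were 8.53 ± 0.57 in knockout and 6.24 ± 0.23 in wildtype cells (SD, n = 4 and n = 5).

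Racgap1 and Ect2 form one signalling step. Racgap1 is the GTPase-activating subunit of centralspindlin, and it binds Ect2, the exchange factor that loads RhoA with GTP at the equator. Racgap1 read 10.20, 9.52, 10.04 and 10.27 (log2) on knockout arrays KO1 to KO4, against 7.69, 8.00, 7.96, 7.97 and 7.76 on wildtype arrays WT1 to WT5. The groups were 1.52 apart, with KO2 alone below 10 among the knockout arrays, and the fitted rise was 4.51-fold (log2 difference 2.17, SE 0.24, adjusted p = 0.00325). Its means were 10.01 ± 0.34 in knockout and 7.88 ± 0.14 in wildtype cells (SD, n = 4 and n = 5). Ect2 read 11.27, 10.60, 11.24 and 10.94 (log2) on knockout arrays KO1 to KO4, against 9.20, 9.73, 9.58, 9.11 and 9.83 on wildtype arrays WT1 to WT5. The gap between the groups was narrower, 0.77, and the rise was 2.93-fold (log2 difference 1.55, SE 0.29, adjusted p = 0.0151). Its means were 11.01 ± 0.31 in knockout and 9.49 ± 0.32 in wildtype cells (SD, n = 4 and n = 5). The Ect2 call ended without KO1 or WT1 (1.2, adjusted p = 0.0532 and 0.0534).

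Prc1, which crosslinks antiparallel microtubules of the central spindle, rose 3.15-fold (log2 difference 1.66, SE 0.27, adjusted p = 0.00979). Its levels were 11.86, 11.24, 11.47 and 11.56 (log2) on knockout arrays KO1 to KO4, against 9.50, 10.24, 10.04, 9.62 and 10.04 on wildtype arrays WT1 to WT5. KO1 was again the highest knockout and WT1 the lowest wildtype array, and the groups were 1.0 apart. The means were 11.53 ± 0.26 in knockout and 9.89 ± 0.31 in wildtype cells (SD, n = 4 and n = 5). Without WT2 the difference was 2.37, that of KO1 and WT1 alone.

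The same arrays recurred at the ends of the range. KO2 was the lowest knockout array for 10 of 10 genes, and KO1 was the highest for 5 and KO4 for 4. WT1 was the lowest wildtype array for 6 genes and WT2 the highest for 6. KO1 and WT1 deviated in opposite ways over all genes tested too (r = -0.92), so their places are not separate facts about these genes. The median deviation of the 10 genes from their wildtype means was 2.14 on KO1, 1.43 on KO2, 1.99 on KO3 and 2.04 on KO4, and ran from -0.27 (WT1) to 0.21 (WT2) on the wildtype arrays. Without KO2 all 10 genes were still called, with a median difference of 2.08, where 10.4% of the genes tested were called higher. Over the 9 arrays the correlation between pairs of the 10 genes was 0.93 to 0.995. These points share arrays and the shift between genotypes. With genotype means taken out, r with the mean of the other 9 genes was 0.57 (Tacc3) to 0.98 (Aspm).

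Within batches, all 10 genes were higher in knockout cells in batch 1 (KO1 against WT1) and in batch 2 (KO2 to KO4 against WT2), with medians of 2.45 and 1.65. The difference was larger in batch 1 for 9 genes, the exception being Hmmr, with 2.87 in batch 1 and 2.96 in batch 2. The fitted difference takes 40% of its weight from batch 1 and 60% from batch 2. Tpx2 differed most between them, with 2.60 in batch 1 and 0.97 in batch 2, and Tacc3 had 1.98 in batch 1 and 0.82 in batch 2. In a limma test of whether the difference varied between batches 1 and 2, 0 of the 10 genes passed (adjusted p 0.226 to 0.946), and 0.0207% of all genes did. At an unadjusted p under 0.05 there were 4 of the 10, and 1926 of the 14524 genes tested. Without both arrays of batch 1, 8 of the 10 were called, where 8.06% of the genes tested were called higher. Tpx2 (0.97, adjusted p = 0.0568) and Ect2 (1.2, adjusted p = 0.0532) were not. Without that pair the differences were 2.96 for Hmmr, 2.08 for Aspm, 2.10 for Anln, 2.05 for Ckap2, 1.95 for Racgap1, 1.35 for Nusap1, 1.18 for Prc1 and 0.82 for Tacc3, all called. Without the wildtype arrays of batch 3, where 1.91% of the genes tested were called higher, 7 of the 10 were called, and Tpx2 (adjusted p = 0.0871), Tacc3 (0.0704) and Ect2 (0.0519) did not pass at the same differences. With arrays scaled to equal medians and interquartile ranges, Tpx2 (1.18, adjusted p = 0.0571) and Tacc3 (0.83, adjusted p = 0.109) did not pass.

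**Figure D2:**
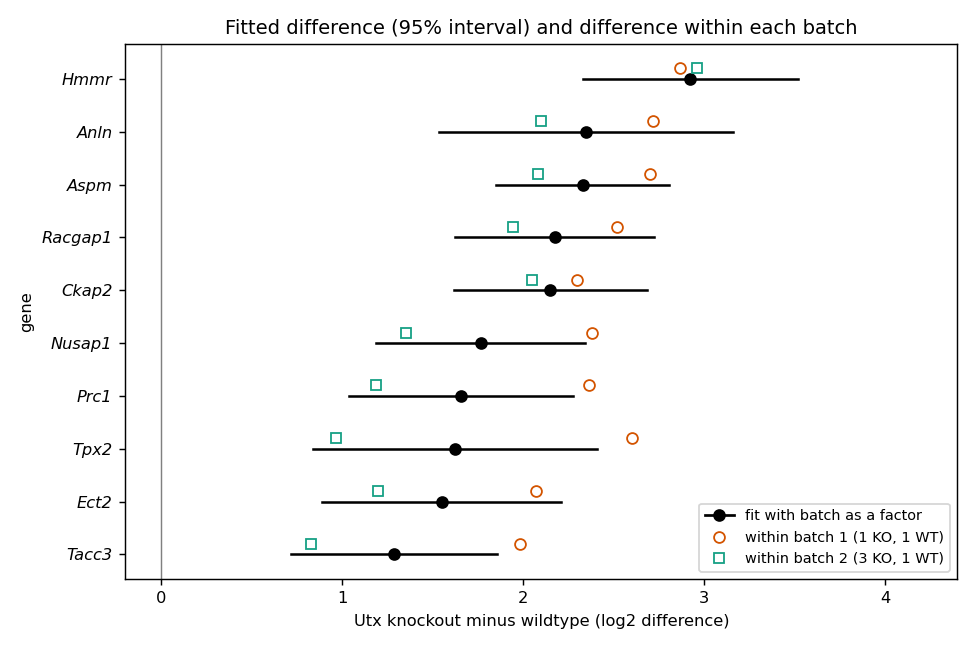
Difference between Utx knockout and wildtype arrays (log2, horizontal axis) for each of the 10 genes, with the fitted value and its 95% interval in black and the differences within batch 1 (orange circles) and batch 2 (green squares). Fitted values run from 1.29 for Tacc3 to 2.92 for Hmmr, and batch 1 lies to the right of batch 2 for all genes but Hmmr.

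The 28 probe sets gave a less uniform picture than 1 probe set per gene. Fitted over all probe sets with 1 gene, 16 of the 28 were called higher and 0 lower in knockout cells, where 4.7% of all such probe sets were called higher and 2.66% lower. For 22 of the 28 every knockout array read above every wildtype array, as for 17.3% of all. Of the 12 not called, 4 lay under the level at which genes were kept for testing (4.54, the 25th percentile of all probe sets), and the other 8 had positive differences. Of the 18 probe sets not used for the gene levels, 6 were called. Prc1 had both of its 2 probe sets called. Ckap2 and Ect2 had only 1 probe set each, the called one used for the gene level.

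For Hmmr, 3 of 5 probe sets were called, with differences of 0.70 to 2.92. The probe set with the smallest difference had 2.18 in batch 1 but -0.29 in batch 2. For Tpx2 the probe set of second-highest level, at 10.71 ± 0.29 in knockout and 8.06 ± 0.08 in wildtype cells (SD, n = 4 and n = 5), rose by more than the one used, by 2.70 on the log2 scale (SE 0.21, adjusted p = 0.00255). Its batch 1 value was 2.87 and its batch 2 value 2.59. A Tpx2 probe set below the level filter had -0.65 (adjusted p = 0.119), and another there had 0.09. Racgap1 had 2 probe sets with nearly equal rises, 2.17 and 2.30, and one near the bottom of the scale (means of 2.55 in knockout and 2.73 in wildtype cells) with -0.18. Aspm was called on 1 of 5 probe sets, the other 4 having 0.79 to 1.47 at lower levels. The other probe set of Anln, at 5.68 in knockout and 5.58 in wildtype cells, had 0.08 (adjusted p = 0.916). The order of the 10 genes by size of difference is therefore that of the probe sets used.

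**Figure D3:**
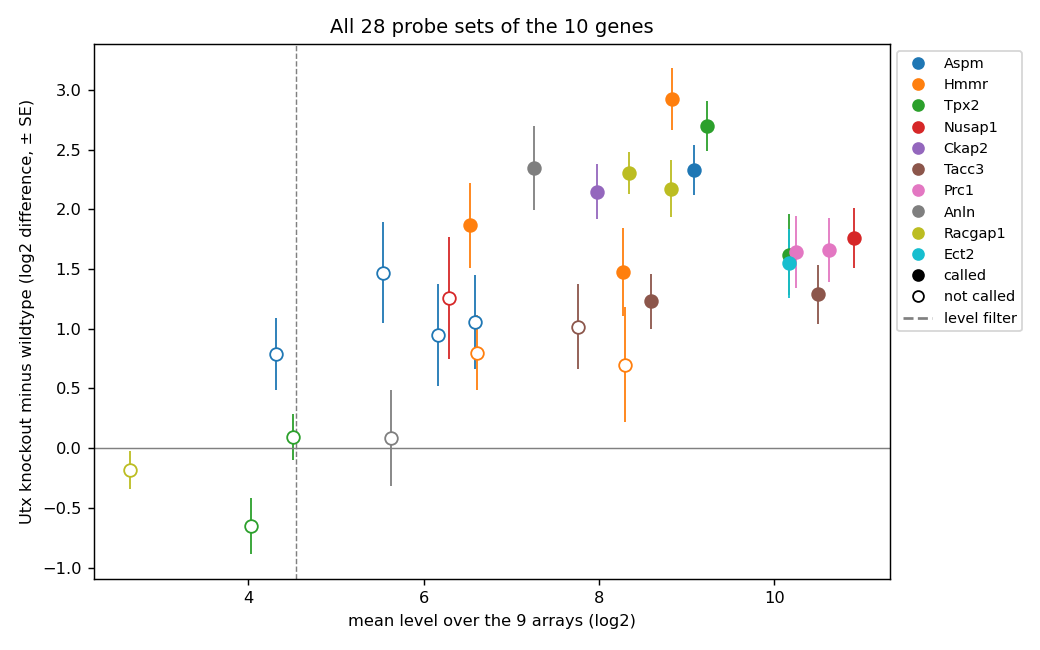
Difference between Utx knockout and wildtype arrays (log2 ± SE, vertical axis) against the mean level over the 9 arrays (log2, horizontal axis) for the 28 probe sets, coloured by gene, filled where called at an adjusted p of 0.05. Every probe set with a mean level above 9 is filled, and both negative differences lie left of the level filter (dashed line).

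Other genes of the same processes were counted from 2 lists, which were chosen with earlier results of these data known. Of 32 further spindle assembly genes, 17 were higher and 0 lower, with a median difference of 0.88. Of 26 further cytokinesis genes, 13 were higher and 0 lower, with a median of 0.90, against 7.88% called higher and a median of 0.11 over all genes tested. The spindle genes of smallest p were the kinesins Kif2c (2.71), which depolymerises microtubules, and Kif11 (2.09), which pushes the poles apart, with Spag5 (2.56), a kinetochore and spindle protein, and Ckap2l (2.0), a relative of Ckap2 (log2 differences, adjusted p 0.00222 to 0.00412). The cytokinesis genes of smallest p were Cit (1.98), the citron kinase of the midbody, Kif23 (1.87), Plk1 (2.18), a kinase that licenses the binding of Ect2 to centralspindlin, and Kif4 (2.21; adjusted p 0.00292 to 0.00535).

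Direct partners of the 10 proteins were mixed. Kif23, the kinesin that forms centralspindlin with Racgap1, averaged 10.19 ± 0.29 in knockout and 8.35 ± 0.17 in wildtype cells (log2, SD, n = 4 and n = 5). Kif4, which brings Prc1 to the midzone, averaged 8.79 ± 0.42 in knockout and 6.64 ± 0.26 in wildtype cells. Rhoa, the GTPase on which Ect2 acts, had 0.34 (adjusted p = 0.185). Aurka, the kinase bound by Tpx2, rose by 1.88 on the log2 scale (adjusted p = 0.00932), while Kpna2, the importin that holds Tpx2 inactive, had 0.57 (adjusted p = 0.113). Tacc1 and Tacc2, the relatives of Tacc3, had 0.13 (95% interval -0.23 to 0.50) and 0.15 (-0.36 to 0.67). The 5 septins of the list, filament proteins bound by anillin, had differences of -0.45 (Septin9) to -0.14 (Septin2), none past the threshold. They were singled out after their values were seen.

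**Figure D4:**
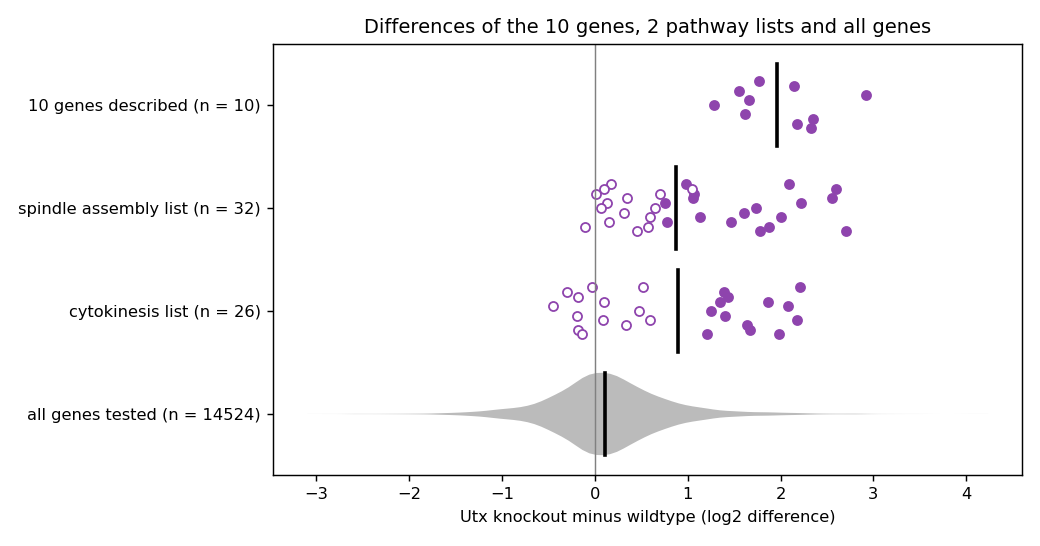
Differences between Utx knockout and wildtype cells (log2, horizontal axis) for the 10 genes, the lists of 32 spindle assembly and 26 cytokinesis genes (points, filled where called) and all 14524 genes tested (violin), with medians as black bars. All 10 genes lie at 1.29 or above, whereas both lists also hold genes near 0.

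Genes were also ranked by how like their levels over the 9 arrays were to the mean of the 10. The pathway lists and all marker lists described below were left out of this ranking, so their genes may lie as close. Highest among the rest were Brd3 (Pearson r 0.998), a bromodomain protein, Scamp1 (0.997), a membrane trafficking protein, and Ezh2 (0.996). Ezh2 is the methyltransferase for lysine 27 of histone H3. Bub1b and Mad2l1 of the spindle checkpoint, the condensin subunit Ncapg, the inhibitor Fbxo5 of the anaphase-promoting complex and the exosome subunit Exosc9 followed, at r of 0.995 to 0.996. Any gene with a clean shift between genotypes scores high on this measure. With the genotype means taken out, r for these 8 genes was 0.90 to 0.95. The 8 genes were picked by r over the same arrays, so these values are not a separate check. Ezh2 averaged 12.07 ± 0.29 in knockout and 10.34 ± 0.17 in wildtype cells (SD, n = 4 and n = 5; log2 difference 1.75, adjusted p = 0.00479).

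Markers of proliferation and of other thymic cells moved on the same arrays. Of 9 proliferation markers tested, 7 were higher, with a median of 1.37, and Mki67, the antigen of cycling cells, averaged 12.30 ± 0.26 in knockout and 10.93 ± 0.35 in wildtype cells (log2, SD, n = 4 and n = 5). Of 14 markers of double-positive thymocytes, the immature cells that make up most of the thymus, 8 were higher and 0 lower, with a median of 1.0. Their mean level was 11.58 to 12.15 on knockout and 10.54 to 11 on wildtype arrays. Cd8a averaged 12.74 ± 0.23 in knockout and 11.76 ± 0.21 in wildtype cells (adjusted p = 0.03). Of 13 macrophage and dendritic cell markers, 6 were higher and 1 lower, with a median of 1.36 and mean levels of 7.88 to 8.78 on knockout and 6.67 to 7.27 on wildtype arrays. The lower one was Fcer1g (log2 difference -1.62, adjusted p = 0.00448). Csf1r, with the largest difference of the list, averaged 8.61 ± 0.61 in knockout and 4.55 ± 0.71 in wildtype cells. Its wildtype mean lay at the level filter, and Itgam lay below that filter. Of 5 B cell markers 2 were higher (median 1.18; mean levels 6.95 to 7.94 on knockout and 6.14 to 6.52 on wildtype arrays).

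Of 12 markers of iNKT and mature T cells, 1 was higher and 4 lower, with a median of -0.29 and mean levels of 11.55 to 11.79 on knockout and 11.97 to 12.15 on wildtype arrays. The 4 lower ones were Cxcr3 (-2.05), Cd44 (-1.23), Tbx21 (-1.08) and Il2rb (-1.01), and the higher one was Thy1 (0.885, all log2 differences). Zbtb16, which encodes the iNKT factor PLZF, was present in both genotypes at 10.72 ± 0.21 in knockout and 10.95 ± 0.19 in wildtype cells (adjusted p = 0.51). KO2 had the smallest deviation among knockout arrays for the 10 genes, the proliferation markers, the double-positive markers and the myeloid markers, and KO4 for the B cell markers. Within batches 1 and 2 the median differences were 2.08 and 1.03 for proliferation, 1.6 and 0.65 for double-positive and 2.04 and 1.17 for myeloid markers. The part of these other cell types in the levels of the 10 genes was not tested.

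**Figure D5:**
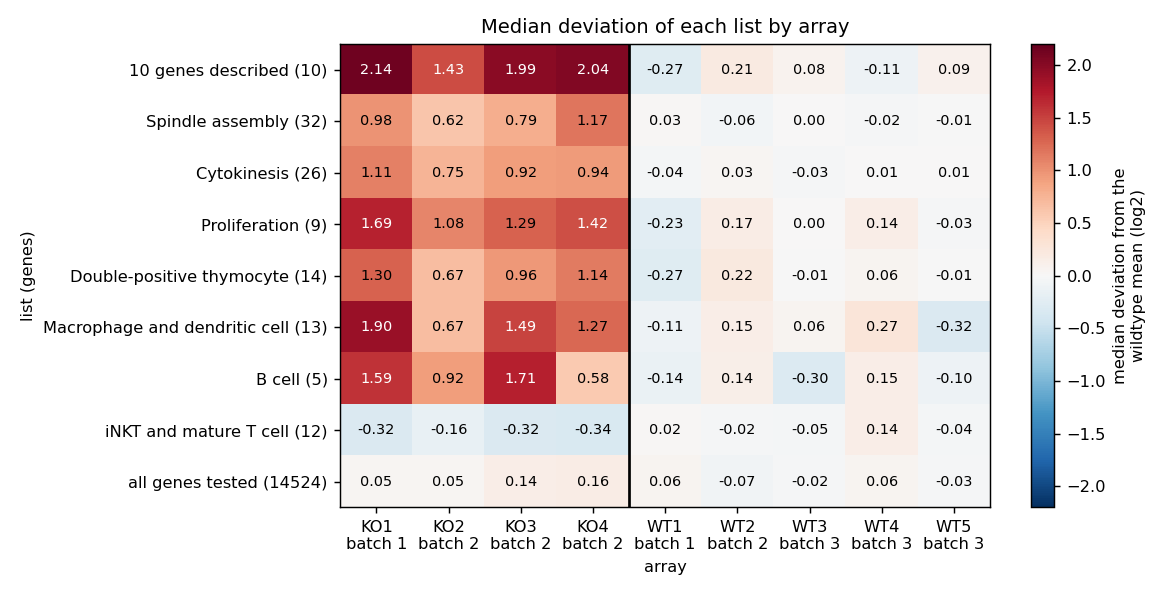
Median deviation from the wildtype mean (log2, colour and printed value) of the 10 genes, the pathway lists and the marker lists (rows, with the number of genes) on each of the 4 knockout and 5 wildtype arrays (columns). The 10 genes reach 1.43 to 2.14 on knockout arrays, and double-positive markers 0.67 to 1.3 on the same arrays.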

How the data were processed

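For every array the authors deposited a log2 level per probe set, from RMA per the submitters' processing notes. Whether the values were adjusted afterwards is not known, and interquartile ranges differed between arrays, which RMA alone would bring close together. The genome build, the version and any later step are not given in the sources used here, and arrays give no read depth, so their number limits the precision. Per the labels' protocols, RNA of sorted cells was amplified with a kit made for very small amounts, and what this did to the levels was not measured. Of 45101 probe sets, 34945 that are not spiked controls were annotated with 1 gene. Each gene took its probe set of highest mean, and was tested if that mean passed 4.54 (log2), the array-wide 25th percentile.

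Genotype, replicate and batch were read from the titles. Knockout was compared with wildtype by limma 3.58.1 (R 4.3.3) on all 9 arrays, with genotype and batch (3 levels) as factors, 5 residual and 3.50 prior degrees of freedom and two-sided p-values adjusted by Benjamini and Hochberg, with 0.05 as threshold, over all genes, or over all probe sets where these are counted. The fit was tested on simulated data with independent noise, which lack the opposite deviations of KO1 and WT1 seen here. No 2 arrays of a group were duplicates (smallest SD of a difference 0.30, log2). The labels do not say that replicates came from separate animals, so p-values measure the spread between these samples.

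The members and lists were chosen with earlier results of these data known. Named are the 10 genes, the 4 genes of smallest p called in each pathway list, Tacc1, Tacc2, Kif23, Rhoa, Aurka, Kpna2 and Kif4. Also named are the 8 genes outside all lists that were most like the mean of the members, and Cd8a, Csf1r, Mki67, Zbtb16 and Kdm6a. The test between batches and the naming of septins were chosen after seeing the data. So were the mentions of Itgam, of Fcer1g and of the called markers of iNKT and mature T cells. The markers of highest mean in each list, which the rule allows, are counted and not named. Alternatives covered the batch term, replicate number, arrays left out, scaling, filter, choice of probe set, eBayes settings, array weights and threshold.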

Additional observations from a re-analysis of the deposited data

Results flagged for a closer look

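The level of Anln on KO2, 7.68 (log2), stood apart from the other knockout arrays, at 8.75 to 8.85, by 0.916 of the range of the group, above Dixon's critical value for a group of 4. It remained above all wildtype arrays. The 10 genes gave 20 groups of arrays to examine, and chance alone flags about 1 in 20.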

How the results depend on the processing

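The 10 genes kept a positive difference in the alternatives in which they were tested. With the probe set of lowest mean Aspm, Tpx2 and Racgap1 were under the level filter and not tested, those of Tpx2 (-0.65) and Racgap1 (-0.18) being negative. Of 227 refits of a single gene 212 stayed past the threshold and 15 did not. These 15 concern Tpx2 (6), Ect2 (4), Tacc3 (3), Nusap1 (1) and Anln (1). The refits are not separate checks. Leaving out KO1, WT1 or both gives the same difference, and leaving out WT3, WT4 or WT5 cannot move a difference. With 1 array left out, 8 to 10 of the 10 genes, 10 to 21 of the 28 probe sets, 21 to 34 of the 58 further pathway genes and 851 to 2062 of all genes were called, against 10, 16, 30 and 1634 with all arrays. The differences of single genes then ranged from 0.82 to 3.08 (log2). The 10 probe sets were reached without KO1 or WT1, and 851 to 1071 genes without KO3, KO4, WT2, WT3, WT4 or WT5.

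Without the wildtype arrays of batch 3 the counts were 7, 8, 15 and 339, Tpx2, Tacc3 and Ect2 losing their call with unchanged differences and fewer samples to set the spread. Without the batch 1 pair 10 probe sets were called. At an adjusted p of 0.01 the counts were 7, 7, 16 and 336, and with array weights 9 probe sets and 534 genes passed. Taking the probe set of lowest mean left 7 of the 10 genes above the level filter, of which 4 were called, and 19 of 51 pathway genes; Nusap1 (1.26), Tacc3 (1.02) and Anln (0.08) did not pass. All genes called numbered 6342 with no batch term and 10045 with batch as a random block. With the replicate block in place of batch the numbers were 10, 21, 35 and 4278, and with it beside batch 10, 16, 30 and 1707. Between same-numbered arrays, deviations from the group means had r of -0.92 to 0.15, and 1 of 4 knockout arrays correlated best with its own number. These correlations cannot decide whether the numbers pair the arrays, because any adjustment of the values after RMA is not known.

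Another quantile normalization kept 10 genes called, with 1789 genes in all, 747 of them lower, in place of 1634 and 490. Equal medians and interquartile ranges, which moved the median of all genes to -0.06 in place of 0.11, gave 2159 and 1118 and kept 8 of the 10 called, Tpx2 (1.18, adjusted p = 0.0571) and Tacc3 (0.83, adjusted p = 0.109) not passing. The median of the 10 genes was then 1.58.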
